A study of Mus musculus with 11 samples.

Results

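The transcription factors *Gata4*, *Maf*, *Meis1*, *Meis2*, *Tfec*, *Erg*, *Fli1*, *Sox18*, *Lmo2* and *Prox1*, which are linked to the identity of liver sinusoidal endothelial cells (ECs), were followed in ECs of mice raised germ-free (GF) or with a conventional microbiota (CONV-R). They were taken by gene symbol from the table of raw read counts. All 10 symbols were found among the 29307 listed genes, and all 10 had enough counts to be among the 12905 genes tested.

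The study asked how the gut microbiota shapes the transcriptome of the hepatic endothelium. Male C57BL/6J mice aged 10 to 12 weeks were compared, 6 of them CONV-R mice with a specific-pathogen-free microbiota and 5 of them GF mice kept in isolators. No allele or drug distinguished the groups. Liver ECs were enriched by magnetic sorting for CD146 and then sorted by flow cytometry as CD31+ CD105+ CD146+ cells, RNA was amplified to cDNA as a whole transcriptome, and 1 library was sequenced per mouse. The authors left out 1 further GF library with few mapped reads. They also reported fewer sorted ECs and less RNA from GF than from CONV-R livers, and a low viability of the sorted cells. A fixed amount of RNA went into the amplification. The difference in yield runs with the comparison of the groups, and its part in the results was not tested. In such bulk libraries, fewer cells of a type and less RNA per cell cannot be told apart.

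Sinusoidal ECs line the liver capillaries, carry open pores without a continuous basement membrane, and clear waste from the blood with scavenger receptors. Gata4 is a zinc-finger factor that sets this state apart from that of continuous capillaries, and Maf (c-Maf) is a basic leucine zipper factor that acts with it. Meis1 and Meis2 are TALE homeodomain proteins that bind DNA together with Pbx partners. Erg and Fli1 are paralogous ETS factors that maintain endothelial gene expression, and Lmo2 is a LIM-domain bridge between GATA and basic helix-loop-helix factors. Sox18 is a SoxF factor of vessel development, Tfec is a basic helix-loop-helix leucine zipper factor of the MiT-TFE family, and Prox1 is the homeodomain factor that directs lymphatic fate and is also made by hepatocytes.

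Libraries held between 7242717 and 16164588 counts. Levels are given in CPM, counts scaled to a common library size by TMM normalization. CONV-R replicate 3 stood apart from its group on the second principal component of log2 CPM, with a score of -48.1, whereas the other CONV-R libraries had scores from 6.01 to 17.6. The label of the cells was checked with 11 sinusoidal genes such as *Stab2* and *Clec4g*. Their summed level was 33350 to 42315 CPM in CONV-R and 33390 to 47339 CPM in GF ECs, and a two-sided exact permutation test of this sum gave p = 0.5. The sum of 9 genes listed for continuous capillaries was 1081 to 1290 CPM in CONV-R and 1271 to 1731 CPM in GF ECs. It was higher in GF ECs by 0.25 on the log2 scale (exact permutation p = 0.00433, two-sided). This list includes *Plvap* and *Vwf*, neither of which passed 0.05 alone (edgeR adjusted p = 0.469 and 0.223). *Vwf* had 65.1 to 221 CPM in CONV-R and 79.8 to 405 CPM in GF ECs. For 10 pan-endothelial genes the sum was 7552 to 9573 CPM and 7448 to 11204 CPM, a log2 difference of 0.26 that did not pass 0.05 (exact permutation p = 0.0693, two-sided). The 10 hepatocyte markers summed to 31.7 to 68.1 CPM in CONV-R and 39.1 to 102 CPM in GF ECs. The Kupffer cell list, with markers of the resident liver macrophages, summed to 86.0 to 222 CPM in CONV-R ECs (median 106) and to 197 to 931 CPM in GF ECs (median 288). This sum was higher in GF ECs (two-sided exact permutation test, p = 0.0173), and 7 of its 10 genes were higher by edgeR's adjusted p. GF replicate 6 had the highest Kupffer sum, 931 CPM. In neither of these lists was a marker at 0 in every library. Sums were low for the lymphatic endothelial list, 0.819 to 2.09 CPM in CONV-R and 0.910 to 3.70 CPM in GF ECs. They cover 3 of its genes and leave out *Ccl21a*, whose symbol stood for several entries. For the stellate cell list the sums were 4.34 to 10.1 CPM and 1.33 to 9.39 CPM. The lymphocyte list had median sums of 24.6 CPM and 25.1 CPM. For the megakaryocyte and erythroid list the sums were 18.8 to 36.2 CPM in CONV-R ECs, with a median of 22.4. In GF ECs they were 10.3 to 29.2 CPM with a median of 13.4, a log2 difference of -0.58 (two-sided exact permutation test, p = 0.0801). CONV-R replicate 3 had the highest of these sums. The part of this list in the results was not tested.

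Because *Meis1* and *Meis2*, and likewise *Erg* and *Fli1*, are close relatives, their most alike coding stretches are shown first. A read of 50 bases that fits both paralogs could not be assigned. The stretches run 5′ to 3′ on the transcribed strand, and capitals mark the bases that differ between the paralogs. They come from GENCODE M21 on GRCm38. For the TALE pair, *Meis2* (minus strand, chr2:115866853-115867278) and *Meis1* (minus strand, chr11:18884031-18884396) are shown across exons 11 and 12, around the longest run of 32 bases that both coding sequences share.
Meis2: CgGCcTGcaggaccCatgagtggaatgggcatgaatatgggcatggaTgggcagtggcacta
Meis1: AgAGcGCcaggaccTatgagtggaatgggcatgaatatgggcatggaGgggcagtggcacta

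Of these 62 bases, 7 differed. For the ETS pair the longest shared coding run was 22 bases, within the stretch that encodes part of the DNA-binding ETS domain, in exon 9 of *Fli1* (minus strand, chr9:32424128-32424179) and exon 10 of *Erg* (minus strand, chr16:95361149-95361200).
Fli1: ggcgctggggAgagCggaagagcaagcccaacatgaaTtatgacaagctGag
Erg: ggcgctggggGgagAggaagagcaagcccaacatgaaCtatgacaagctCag

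Here 4 of 52 bases differed. Over whole transcripts, 0.190% of the 50-base words of *Meis2*, 0.292% of those of *Fli1* and 0 of those of *Erg* and *Lmo2* also occurred in transcripts of other genes, and in no case was the paralog among those genes. The share was 17.0% for *Meis1* and 4.64% for *Maf*. Exons of *Meis1* overlap those of *Gm16140* on the opposite strand and *Gm37818* on the same strand over 18.3% of their bases. Exons of *Maf* overlap the antisense *Gm15655* over 5.34%, and those of *Prox1* overlap *Prox1os* over 1.59%. The strand setting of the counting is not given in the sources used here, so reads from *Meis1*, *Maf* or *Prox1* and from their antisense partners cannot be told apart. Reads from *Gm37818*, which shares the strand of *Meis1* and had no entry among the counted genes used here, cannot be told from *Meis1* by strand.

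Of the 10 factors, 4 differed between GF and CONV-R ECs. *Meis2*, *Erg* and *Lmo2* were lower in GF ECs and *Fli1* was higher, by 1.45- to 1.61-fold, and for each of these 4 the values of the GF and CONV-R mice did not overlap. An adjusted p under 0.05 in edgeR's quasi-likelihood test counts as called. Among all 12905 tested genes, 7.48% were called, 4.8% as higher and 2.67% as lower in GF ECs. Groups did not overlap for 5.59% of all tested genes, 3.22% with the GF mice higher and 2.37% with the GF mice lower. The median Log2FC of the 10 factors, GF relative to CONV-R, was -0.31, against -0.01 over all tested genes. The count of 4 was the same without CONV-R replicate 3 and without GF replicate 6. Without GF replicate 6, which had the highest Kupffer sum, the Log2FC of *Meis2*, *Erg* and *Lmo2* was -0.67, -0.65 and -0.67 (edgeR adjusted p = 0.00237, 0.0386 and 0.0347).

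**Figure D1:**
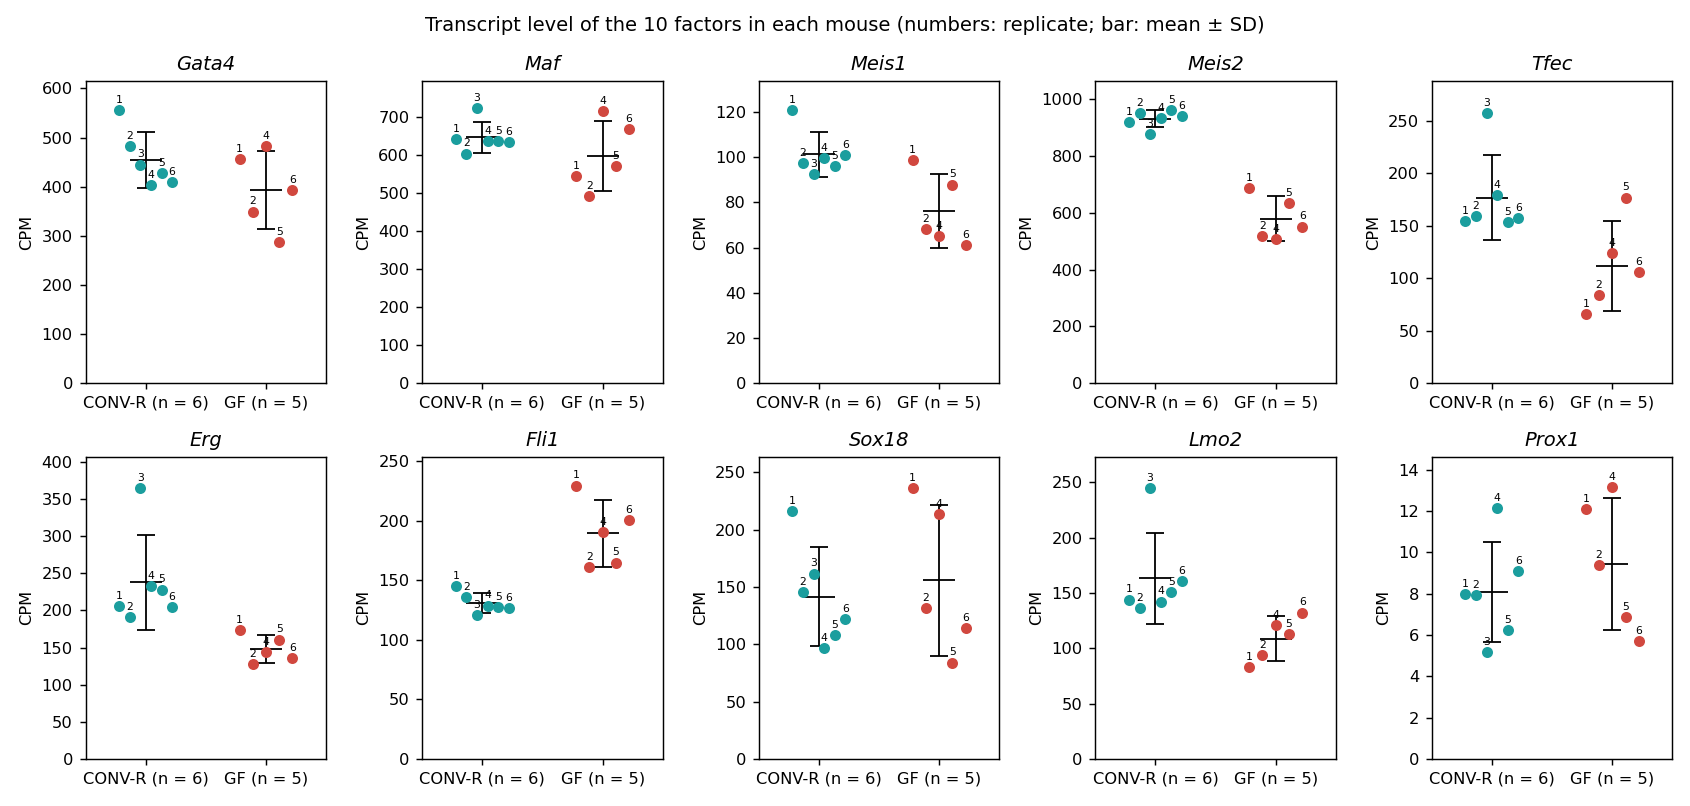
Level of each factor in CPM (vertical axes, linear and starting at 0) in the 6 CONV-R and 5 GF mice. Points are mice numbered by replicate, and bars show the mean ± SD. *Meis2*, *Erg* and *Lmo2* have all GF points below all CONV-R points, *Fli1* has all GF points above them, and the groups overlap in the other 6 panels.

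*Meis2* (chr2:115863064-116065839) had the smallest p of the factors. In CONV-R ECs it had 876 to 962 CPM with a median of 937. The GF mice had 686, 517, 507, 634 and 551 CPM. All GF mice were well below the CONV-R range, and no other factor varied as little among the CONV-R mice, where the SD was 3.25% of the mean. The group means were 931 ± 30.3 CPM (SD, n = 6) and 579 ± 78.1 CPM (SD, n = 5). The Log2FC was -0.68 (standard error 0.10, edgeR adjusted p = 0.000527), a ratio of 0.622 with a 95% interval of 0.537 to 0.721.

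Its paralog *Meis1* (chr11:18879817-19018985) had 92.4 to 121 CPM in CONV-R ECs, with a median of 98.4. The GF mice had 98.6, 68.2, 65.1, 87.8 and 61.2 CPM. GF replicate 1 lay inside the CONV-R range and the other GF mice lay below it. The Log2FC was -0.41 (standard error 0.13), with a 95% interval of -0.69 to -0.12, and did not pass the threshold (edgeR adjusted p = 0.0752). Whether the paralogs differed by unequal amounts was tested with the ratio of their counts within each library, which does not depend on library scaling. There were 9.23 counts of *Meis2* for each count of *Meis1* in CONV-R ECs and 7.68 in GF ECs, as geometric means and not corrected for length. On the log2 scale the CONV-R libraries lay between 2.93 and 3.32 with a median of 3.24, and the GF libraries at 2.80, 2.92, 2.96, 2.85 and 3.17. CONV-R replicate 1 was the low library of its group, and 2 GF libraries lay inside the CONV-R range. The difference was -0.27 (two-sided exact permutation test, p = 0.0195, and 0.0292 adjusted over the 3 ratios compared).

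*Erg* (chr16:95359169-95586593) had 191 to 365 CPM in CONV-R ECs with a median of 217. GF mice had 174, 128, 144, 161 and 136 CPM. Every GF mouse was below every CONV-R mouse, and CONV-R replicate 3 was far above the rest of its group. The means were 238 ± 64.2 CPM (SD, n = 6) and 148 ± 18.7 CPM (SD, n = 5). The Log2FC was -0.68 (standard error 0.15, edgeR adjusted p = 0.0122), a ratio of 0.624 with a 95% interval of 0.498 to 0.782. Without CONV-R replicate 3 it was -0.52 (edgeR adjusted p = 0.00651).

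RefSeq promoter sequences on GRCm38.p6 were given for 5 of the 10 factors, namely *Meis1*, *Meis2*, *Tfec*, *Erg* and *Prox1*. Core motifs were searched on both strands in the 250 bases before each start site: CCGGAA for ETS, AGATAA for GATA and TGACAG for TALE factors, none of which overlap. They occurred in 12.0%, 9.99% and 15.9% of all 32851 promoters of that length. Among the start sites of these 5 factors, an ETS motif was found before that of *Meis1*, and GATA and TALE motifs before the third listed *Erg* start site, within the *Erg* gene and outside annotated exons (minus strand, chr16:95459349-95459598). The shorter or looser motifs ACAAT for SOX, TGCTGA for Maf and CANNTG for basic helix-loop-helix factors occurred in 27.7%, 16.1% and 66.2% of all promoters. Here ACAAT was found before *Meis1*, *Tfec* and the third *Erg* start site, TGCTGA before the first *Erg* start site, and CANNTG before *Meis1*, the third *Erg* start site and the first *Prox1* start site. The third *Erg* stretch is shown as the promoter of a called factor with the most kinds of motif, with 1 GATA and 2 TALE motifs in capitals. A match is a string of letters and does not show binding.
Erg start site 3: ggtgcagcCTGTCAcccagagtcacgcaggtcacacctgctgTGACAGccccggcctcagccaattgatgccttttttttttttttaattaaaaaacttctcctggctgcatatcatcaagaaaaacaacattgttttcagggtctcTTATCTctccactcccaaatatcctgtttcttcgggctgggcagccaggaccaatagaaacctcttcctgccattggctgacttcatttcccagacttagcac

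*Fli1* (chr9:32422204-32542861) moved the other way from its paralog. CONV-R ECs had 121 to 145 CPM with a median of 128. In the GF mice it had 229, 161, 190, 165 and 200 CPM, all of them above the highest CONV-R mouse. Means were 131 ± 8.56 CPM (SD, n = 6) and 189 ± 27.9 CPM (SD, n = 5). The Log2FC was 0.53 (standard error 0.11, edgeR adjusted p = 0.00628), a ratio of 1.45 with a 95% interval of 1.23 to 1.70.

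Fli1 is also made by macrophages and other blood cells, and the Kupffer cell list was higher in the GF libraries. In GF replicates 1, 2, 4, 5 and 6, in the order of the *Fli1* values above, the Kupffer sums were 288, 357, 197, 212 and 931 CPM. In CONV-R replicates 1 to 6 they were 222, 86.7, 87.5, 86.0, 125 and 196 CPM, beside 145, 136, 121, 129, 127 and 127 CPM of *Fli1*. Without GF replicate 6 the Log2FC of *Fli1* was 0.51 (edgeR adjusted p = 0.0198). The part of the Kupffer sums in this result was not tested.

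The order of the ETS paralogs by counts within a library was reversed between the groups. On the log2 scale, the ratio of *Erg* to *Fli1* counts was 0.49 to 1.59 in CONV-R ECs, with a median of 0.77. The GF libraries had -0.40, -0.33, -0.40, -0.04 and -0.56. *Erg* thus had more counts than *Fli1* in all 6 CONV-R libraries and fewer in all 5 GF libraries. The geometric means were 1.78 and 0.786 counts of *Erg* for each count of *Fli1*, and the exon lengths of 3466 and 3486 bases are nearly equal. The difference was -1.18 on the log2 scale (exact permutation p = 0.00216, two-sided, the lowest value these group sizes permit, and 0.00649 adjusted over the 3 ratios). Without CONV-R replicate 3, which had the highest ratio, it was -1.02 (two-sided exact permutation test, p = 0.00794).

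**Figure D2:**
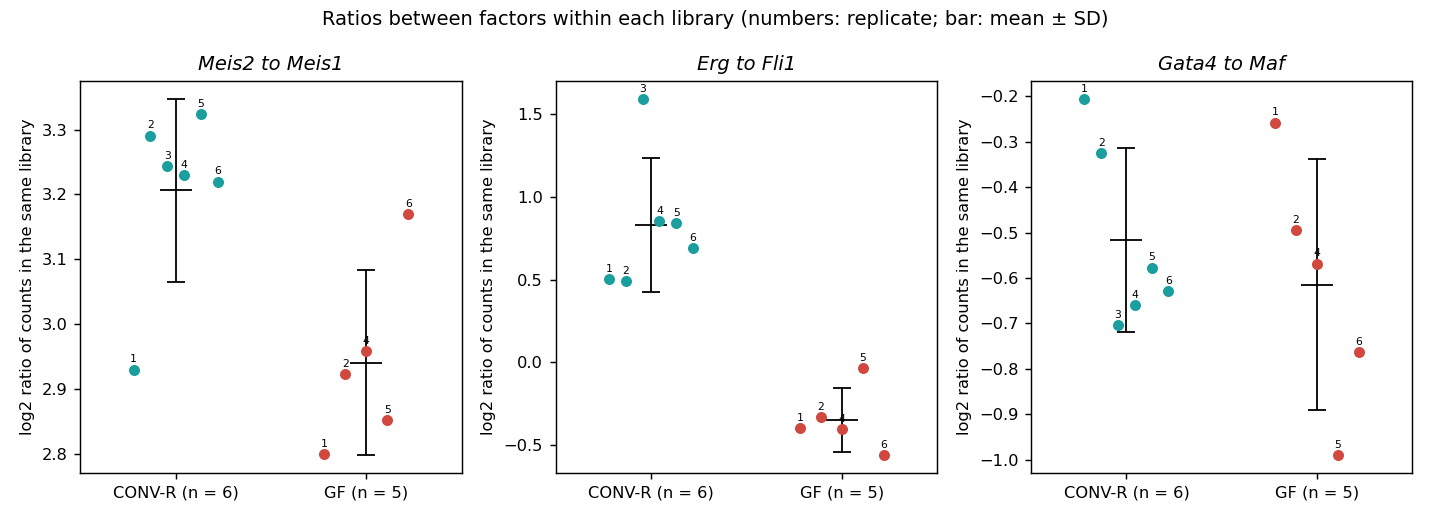
Log2 ratio of the counts of a pair of factors within each library (vertical axes, which do not start at 0) for *Meis2* to *Meis1*, *Erg* to *Fli1* and *Gata4* to *Maf*. Points are libraries numbered by replicate, and bars show the mean ± SD. The GF libraries lie below 0 and the CONV-R libraries above 0 for *Erg* to *Fli1*, and the groups overlap for the other pairs.

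*Lmo2* (chr2:103957986-103981878) had 136 to 245 CPM in CONV-R ECs with a median of 147. The values of the GF mice were 82.7, 93.5, 121, 113 and 132 CPM. The groups did not overlap, but the highest GF mouse and the lowest CONV-R mouse were close, at 132 and 136 CPM. Means were 163 ± 40.9 CPM (SD, n = 6) and 108 ± 20.2 CPM (SD, n = 5). The Log2FC was -0.59 (standard error 0.16, edgeR adjusted p = 0.0341), a ratio of 0.665 with a 95% interval of 0.526 to 0.842. The call was lost without any of 4 single mice, while the Log2FC stayed close to that of all mice. It was -0.62 without CONV-R replicate 5, -0.60 without CONV-R replicate 6, -0.50 without GF replicate 1 and -0.54 without GF replicate 2 (edgeR adjusted p = 0.0511, 0.0578, 0.0859 and 0.0803). CONV-R replicate 3 had the highest value, and without it the Log2FC was -0.44 (edgeR adjusted p = 0.0413).

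*Tfec* (chr6:16833373-16898441) had a fitted difference close to that of *Meis2*, with a wider spread among the mice of each group. It had 154 to 257 CPM in CONV-R ECs, with a median of 158 and its highest value in CONV-R replicate 3. The GF mice had 65.8, 84.1, 124, 177 and 106 CPM. GF replicate 5 lay inside the CONV-R range and the other GF mice lay below it. The Log2FC was -0.67 (standard error 0.21), with a 95% interval of -1.11 to -0.23, and did not pass the threshold (edgeR adjusted p = 0.0606). Without GF replicate 5 it was -0.90 (edgeR adjusted p = 0.00754), and DESeq2 gave an adjusted p of 0.0273. Of the 6 factors that were not called, *Meis1* and *Tfec* were those with an unadjusted p under 0.05.

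*Gata4* and *Maf* did not pass the threshold. *Gata4* (chr14:63198922-63271692) had 404 to 556 CPM in CONV-R ECs with a median of 436, and 456, 349, 483, 288 and 393 CPM in GF mice. The groups overlapped, and the Log2FC was -0.20 with a 95% interval of -0.48 to 0.08 (edgeR adjusted p = 0.379). *Maf* (chr8:115682942-115707794) had 604 to 724 CPM in CONV-R ECs with a median of 638, and 545, 492, 716, 572 and 668 CPM in GF mice. Its Log2FC was -0.11 with a 95% interval of -0.34 to 0.12 (edgeR adjusted p = 0.584). The log2 ratio of *Gata4* to *Maf* counts was -0.52 ± 0.20 (SD, n = 6) in CONV-R and -0.61 ± 0.28 (SD, n = 5) in GF libraries. The difference of -0.10 was smaller than the spread within either group (two-sided exact permutation test, p = 0.524).

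*Sox18* (chr2:181669836-181671640) varied strongly within both groups. CONV-R ECs had 97.0 to 216 CPM with a median of 134, and the GF mice had 236, 132, 213, 84.0 and 114 CPM. The highest and the lowest of all 11 libraries were both from GF mice. The Log2FC was 0.14 with a 95% interval of -0.38 to 0.66 (edgeR adjusted p = 0.784), and it was -0.06 without GF replicate 1.

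*Prox1* (chr1:190118035-190170714) was weakly counted, with 606 counts over the 6 CONV-R libraries and 515 over the 5 GF libraries. It had 5.16 to 12.1 CPM in CONV-R ECs with a median of 7.95, and 12.1, 9.37, 13.1, 6.87 and 5.70 CPM in GF mice. The groups overlapped, and the Log2FC was 0.23 with a 95% interval of -0.32 to 0.78 (edgeR adjusted p = 0.656).

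**Figure D3:**
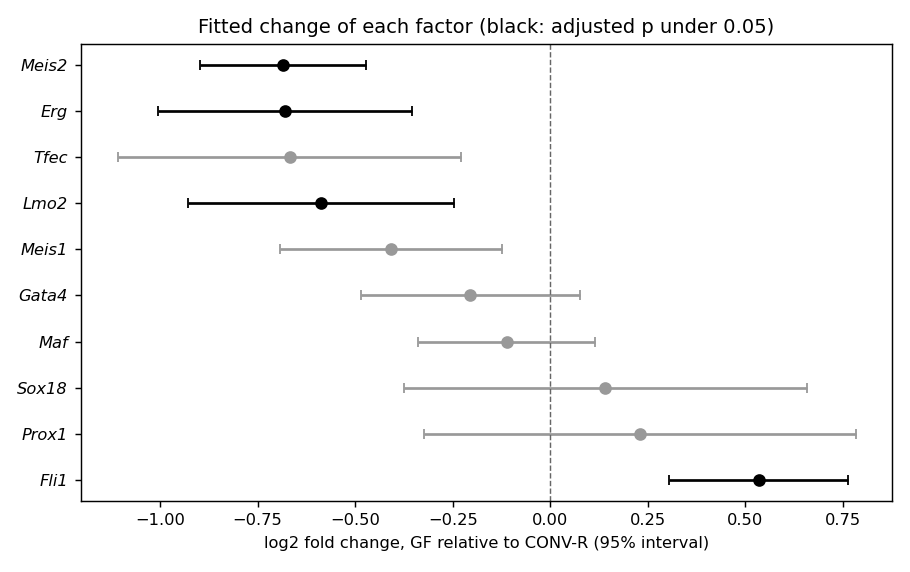
Log2FC of each factor, GF relative to CONV-R (horizontal axis), with its 95% interval from edgeR. Black marks the factors with an adjusted p under 0.05 and grey the rest. *Meis2*, *Erg* and *Lmo2* lie to the left of 0 with Log2FC values of -0.68, -0.68 and -0.59, and *Fli1* lies to the right with 0.53.

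To compare the factors with one another, levels were divided by exon length. In CPM per kb of exon, *Gata4* was highest in CONV-R ECs with 116 ± 14.7 (SD, n = 6), followed by *Sox18* with 87.4 ± 26.8, *Maf* with 78.5 ± 4.92, *Meis2* with 77.3 ± 2.51, *Lmo2* with 75.3 ± 18.9 and *Erg* with 68.6 ± 18.5. The ranges of neighbours in this order overlapped from *Gata4* down to *Erg*, although the range of *Gata4* lay wholly above those of *Maf* and *Meis2*. *Fli1* with 37.5 ± 2.46 CPM per kb lay below all of them, and its range overlapped that of *Tfec* with 31.6 ± 7.22. *Meis1* followed with 9.60 ± 0.95 and *Prox1* with 0.963 ± 0.289 CPM per kb, each with a range below that of the factor before it. In this scale 8 of the factors were at or above the percentile 91.7 of the 12887 tested genes with a matched length, *Meis1* was at the percentile 68.1 and *Prox1* at the percentile 16.3. Among the factors, only *Prox1* thus had a level below the median gene of these sorted ECs.

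In GF ECs *Gata4* with 101 ± 20.3 (SD, n = 5), *Sox18* with 96.2 ± 40.6 and *Maf* with 72.6 ± 11.1 CPM per kb were again ranked 1 to 3. *Fli1* came next with 54.3 ± 8.01 CPM per kb, rank 4 against rank 7 in CONV-R ECs. *Lmo2* had 50.1 ± 9.32, *Meis2* 48.1 ± 6.49 and *Erg* 42.8 ± 5.39 CPM per kb. The ranges of these neighbours overlapped, and *Tfec* with 19.9 ± 7.64, *Meis1* with 7.23 ± 1.54 and *Prox1* with 1.12 ± 0.38 CPM per kb followed without overlap.

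**Figure D4:**
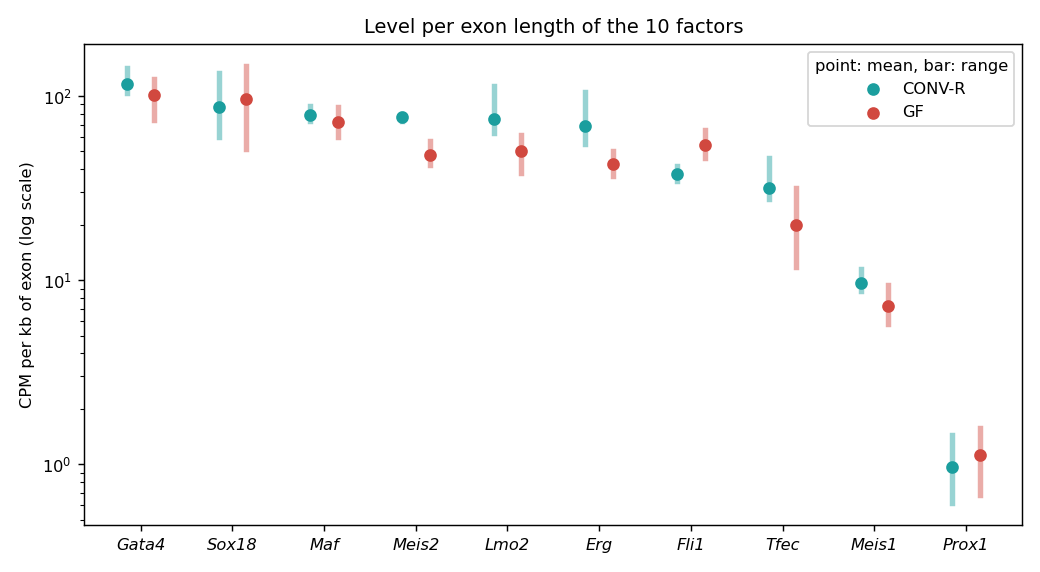
Level of the 10 factors in CPM per kb of exon (vertical axis, log scale), ordered by the CONV-R mean. Points are means over 6 CONV-R or 5 GF mice and bars are the ranges. The means of *Fli1* are 37.5 in CONV-R and 54.3 in GF ECs, and those of *Meis2* are 77.3 and 48.1.

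Relatives and partners of the factors were read from the same test. Of 58 listed, 47 were tested and 3 were called, 1 as higher and 2 as lower in GF ECs, and their median Log2FC was -0.04. The called share was thus near the 7.48% of all tested genes. The number was 5 with DESeq2 and without GF replicate 5, and 1 without GF replicate 6. Of the rest, 8 had too few counts, and the others were not analysed here.

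Among the TALE partners of Meis1 and Meis2, 1 of 7 was called. *Pknox1* (Prep1), which like the Meis factors pairs with Pbx proteins, had 31.6 to 50.3 CPM in CONV-R ECs with a median of 39.8. The GF mice had 61.6, 57.1, 60.9, 54.3 and 78.0 CPM, all above the CONV-R range. Its Log2FC was 0.58 (standard error 0.14, edgeR adjusted p = 0.0174), opposite in sign to those of *Meis2* and *Meis1*. Without GF replicate 6 the Log2FC was 0.49 (edgeR adjusted p = 0.0587).

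Among 4 tested venous and lymphatic factors 1 was called. *Nr2f1* (COUP-TFI), an orphan nuclear receptor whose paralog Nr2f2 specifies veins, had 20.3 to 37.7 CPM in CONV-R ECs with a median of 27.3, and 12.0, 14.2, 23.6, 9.52 and 11.5 CPM in GF mice. GF replicate 4 was the only GF mouse inside the CONV-R range. The Log2FC was -0.93 (standard error 0.23, edgeR adjusted p = 0.0192), and without GF replicate 6 it was -0.86 (edgeR adjusted p = 0.0566). Of 6 other endothelial factors, *Hhex*, a homeodomain factor of early liver and endothelial development, was called. It had 57.5 to 94.2 CPM in CONV-R ECs with a median of 81.0, and 41.3, 32.9, 63.8, 53.1 and 46.0 CPM in GF mice. Its Log2FC was -0.73 (standard error 0.17, edgeR adjusted p = 0.0134), and it stayed called when any single mouse was left out, with an adjusted p of at most 0.0387.

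With edgeR on all mice, no gene was called in the other lists of relatives. For the 4 tested GATA factors and Fog cofactors the gene with the smallest p was *Gata6*, with a Log2FC of 1.87 (edgeR adjusted p = 0.0993). It had at most 1.72 CPM in any CONV-R mouse and 10.7 CPM in GF replicate 6, the library with the highest Kupffer sum. Without that library its Log2FC was 0.69 (edgeR adjusted p = 0.526), and the deposited log2 values gave 0.88. DESeq2 called it with all mice (adjusted p = 0.0454). For 3 small Maf proteins it was *Maff*, with 0.91 (edgeR adjusted p = 0.242). The 3 MiT-TFE relatives of Tfec had Log2FC values between -0.10 and 0.10, with the smallest p for *Tfe3* (0.10, edgeR adjusted p = 0.740). For 9 further ETS factors the values lay between -0.24 and 0.36, with the smallest p for *Elf4* (0.36, edgeR adjusted p = 0.212). None of these 9 reached the size of the difference seen for *Erg* or *Fli1*. For the SoxF factors beside Sox18 the smallest p was that of *Sox17*, with -0.32 (edgeR adjusted p = 0.161), and without GF replicate 5 it was called with -0.45 (edgeR adjusted p = 0.0252). In the complex that Lmo2 bridges, 7 of 9 genes had a negative Log2FC with a median of -0.09, and *Lyl1*, a basic helix-loop-helix partner of Lmo2, had the smallest p with -0.92 (edgeR adjusted p = 0.122).

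Endothelial genes were then set beside the factors, 30 of them tested. Of these, 6 were called, all higher in GF ECs, where 4.8% of all tested genes were called higher. The median Log2FC was 0.35, against -0.01 over all tested genes. The Kupffer sums were also higher in these GF libraries, and their part in the results for relatives and endothelial genes was not tested. None of 11 sinusoidal genes was called by edgeR on all mice in the main fit. The smallest p among them belonged to *Clec1b*, a C-type lectin receptor, with a Log2FC of 0.41 (edgeR adjusted p = 0.0538, and 0.0319 with DESeq2). *Clec1b* was called in 6 of the alternatives. With single mice left out, its edgeR adjusted p lay between 0.0173 and 0.108. The median of the sinusoidal list was 0.33.

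Among the 9 genes listed for continuous capillaries, 3 were higher in GF ECs, against 4.8% of all tested genes, with a list median of 0.61. *Cd34*, a sialomucin of continuous endothelium, had 7.99 to 16.9 CPM in CONV-R ECs with a median of 12.0, and 36.3, 24.6, 26.4, 21.2 and 37.3 CPM in GF mice, with no overlap. Its Log2FC was 1.20 (standard error 0.21, edgeR adjusted p = 0.00183). *Pdgfb*, the growth factor that recruits mural cells, had a Log2FC of 1.39 (standard error 0.25, edgeR adjusted p = 0.00249). *Cav1*, the coat protein of caveolae, had 0.61 (standard error 0.16, edgeR adjusted p = 0.0264), although GF replicate 1 with 92.6 CPM was below the lowest CONV-R mouse with 93.2 CPM.

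Of 10 tested pan-endothelial genes, the junctional adhesion gene *Esam* (0.62, edgeR adjusted p = 0.0261), the adhesion gene *Icam2* (0.54, edgeR adjusted p = 0.0316) and the guidance receptor *Robo4* (0.51, edgeR adjusted p = 0.0336) were higher in GF ECs, and the list median was 0.35. *Cd34* and *Pdgfb* were called whichever single mouse was left out. The calls of *Cav1*, *Icam2*, *Robo4* and *Esam* were each lost when any of several single mice was left out, while the Log2FC stayed between 0.53 and 0.76 for *Cav1*, 0.47 and 0.66 for *Icam2*, 0.42 and 0.60 for *Robo4*, and 0.54 and 0.77 for *Esam*. *Cav1* also just missed the threshold with voom (0.55, limma adjusted p = 0.0501). The number of called endothelial genes was 2 with CONV-R replicate 4, CONV-R replicate 5 or GF replicate 6 left out. It was 3 with CONV-R replicate 2, CONV-R replicate 6 or GF replicate 2 left out, and 11 without GF replicate 5.

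**Figure D5:**
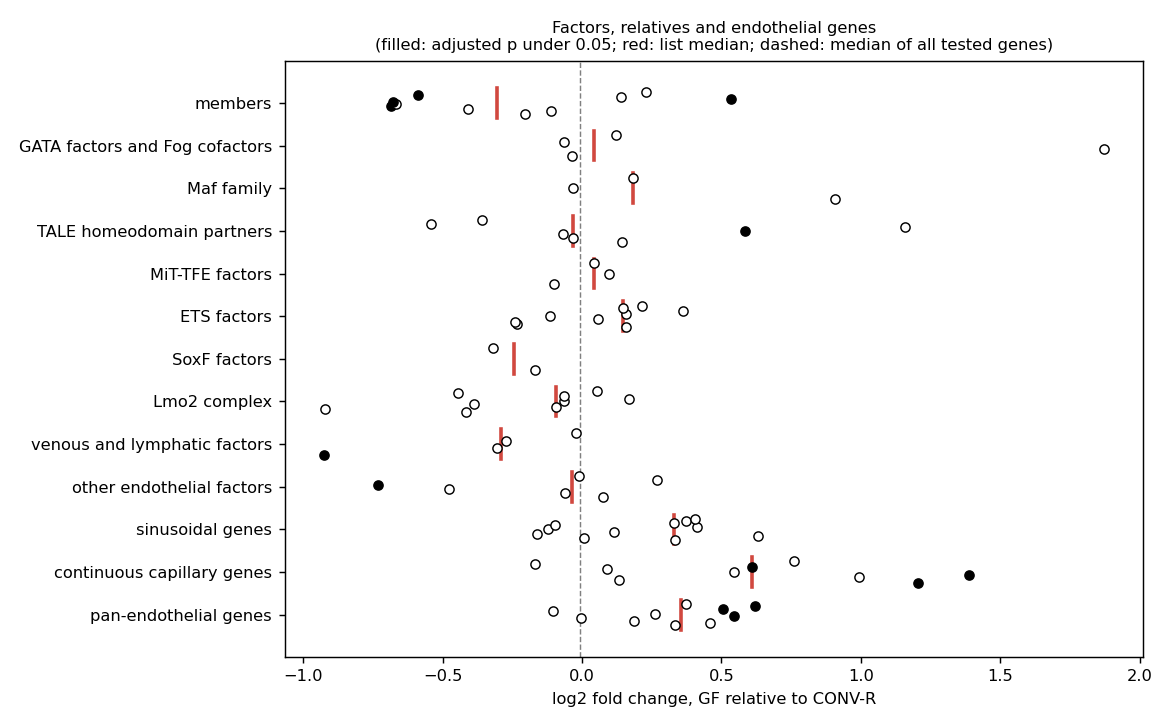
Log2FC of each tested gene, GF relative to CONV-R (horizontal axis), for the 10 factors (members), 9 lists of relatives and 3 lists of endothelial genes. Each circle is a gene, filled where the adjusted p from edgeR is under 0.05. Red lines are list medians, such as -0.31 for the factors and 0.61 for the continuous capillary genes, and the dashed line is the median of all tested genes.

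For each called factor, the tested genes with the most similar log2 CPM over the 11 libraries were sought, as a description. All 11 points share the split into GF and CONV-R mice, so genes that differ between the groups in the same direction will correlate. Most like *Meis2* were *Uaca* (Pearson r = 0.97, Spearman rho = 0.90), *Epb41l2* (0.96 and 0.81) and *Rhod* (0.96 and 0.94). For *Erg* they were *Klhl6* (0.96 and 0.94), *Slc35b3* (0.95 and 0.90) and *Lrrc40* (0.95 and 0.89). The nearest to *Fli1* were *Ednrb*, the endothelin B receptor (0.97 and 0.93), *Trim25* (0.97 and 0.88) and *Zbtb38* (0.95 and 0.90). The nearest to *Lmo2* were *Fam136a* (0.96 and 0.87), *H2afy* (0.96 and 0.97) and *Tpd52* (0.95 and 0.94).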

How the data were processed

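The libraries, 1 per mouse and grouped by the sample labels, came from liver ECs of 6 CONV-R and 5 GF mice. The authors trimmed single reads, mapped them to GRCm38 with STAR and deposited raw counts per gene from featureCounts. They also deposited values on a log2 scale, normalized across libraries by the DESeq method, which served as an alternative. The annotation release and strand setting are not given in the sources used here.

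Counts were filtered (filterByExpr), scaled (TMM) and compared with edgeR 4.0.16's quasi-likelihood test in R 4.3.3, with Benjamini-Hochberg adjustment over all 12905 tested genes and a threshold of 0.05. CPM used the TMM-scaled totals. Ratios used counts plus 0.5 within a library and an exact permutation test over all 462 splits of the mice. Exon lengths came from GENCODE M21. Alternatives were DESeq2 1.42.0, limma 3.58.1 (voom, and on the deposited log2 values), DESeq2's size factors, an unfiltered table, a minimum of 10 counts in each library, a pseudocount of 2, drawn-down counts, a replicate block and each mouse left out. A fit of the block's libraries with no block term was added after seeing the data. The fits were tested on simulated data.

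The factors and gene lists were chosen with earlier results of these data known. Named genes were every factor, the called genes of each list of relatives or endothelial genes or, where there was none, that with the smallest p, and the 3 genes most like each called factor. With 5 and 6 mice, p values set the difference between the groups against the spread between mice. In edgeR that spread is estimated with information shared across genes. Precision is limited by the number of mice and their spread.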

Additional observations from a re-analysis of the deposited data

Results flagged for a closer look

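In 26 checks of the factors' CPM and of the ratios for a library far from the rest of its group, 7 values stood out, where chance gives about 1 in 20. CONV-R replicate 3, which also stood apart on the second principal component, held 5 of them. They were its 724 CPM of *Maf*, 257 CPM of *Tfec*, 365 CPM of *Erg* and 245 CPM of *Lmo2*, each the highest of the CONV-R group, and its log2 ratio of *Erg* to *Fli1* counts of 1.59. CONV-R replicate 1 held the others, the highest CONV-R level of *Meis1*, 121 CPM, and the lowest CONV-R log2 ratio of *Meis2* to *Meis1* counts, 2.93. Without CONV-R replicate 3, 4 factors were called, as with all mice.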

How the results depend on the processing

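*Meis2*, *Erg* and *Fli1* kept their direction and an adjusted p under 0.05 in every alternative, and the number of called factors lay between 3 and 6. Over all genes, DESeq2 called 1527 genes, against 965 with edgeR, and 5 relatives. With each mouse left out in turn, 622 (without GF replicate 6; 625 without CONV-R replicate 4) to 1260 genes, 3 to 5 factors, 1 to 5 relatives and 2 to 11 endothelial genes were called. Log2 ratios then differed by -0.32 to -0.23 for *Meis2* to *Meis1*, by -1.25 to -1.02 for *Erg* to *Fli1* and by -0.19 to -0.00424 for *Gata4* to *Maf*. *Meis1* was called with DESeq2, with drawn-down counts, with the replicate block and without GF replicate 1. *Tfec* was called with DESeq2, voom, no filter, the replicate block, the deposited log2 values and without GF replicate 5. The sign turned for *Sox18*, whose Log2FC was -0.0591 without GF replicate 1 and otherwise up to 0.30, and for *Tfe3*, with -0.000286 without CONV-R replicate 3 (the libraries of the block with no block term, a setting added after seeing the data) and otherwise up to 0.15. The cause was not tested.

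Replicate numbers shared by GF and CONV-R mice were not treated as pairs in the main test. Same-numbered libraries come from different mice, and the labels name no batch. Their deviations correlated by -0.01 to 0.20, over 0.1 for 1 of 5 numbers. These values cannot decide whether same-numbered libraries shared a sorting day or batch, because no reference range was computed for them. A fit with the replicate block on these 10 libraries called 1101 genes, 6 factors, 3 relatives and 9 endothelial genes. With the block, the log2 ratios differed by -0.26 for *Meis2* to *Meis1* and by -1.02 for *Erg* to *Fli1*, in each case with an exact sign-flip permutation p of 0.0625, the smallest that 5 pairs allow.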
